A study of Mus musculus with 2 samples.

Results

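The proliferating T cells of the inflamed mouse abdominal aorta are the cells that the authors' deposited annotation gives the fine name of proliferating T cell within the broad class of T, NK and innate lymphoid cells, in the library from mice given Lactobacillus casei cell wall extract (LCWE). They number 65 of 5091 cells in that library and of 10477 cells in all. The study sequenced single cells of the abdominal aorta of wild-type C57BL/6J mice 2 weeks after injection of LCWE or of phosphate-buffered saline (PBS). Injected LCWE provokes an arteritis in mice that is used to model Kawasaki disease. The LCWE library came from 1 pool of 7 aortas and the PBS library from 1 pool of 9, after enzymatic dissociation and removal of dead cells, with 10x Genomics 3′ chemistry. The age and sex of the mice are not given in the sources used here. Since each condition is 1 pooled library without replicates, no test between conditions or between sets of cells was possible, and cells were not treated as replicates. All intervals are exact 95% intervals and cover counting error only.

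Resting T cells stay outside the cell cycle. When the antigen receptor and growth signals such as interleukin 2 drive them into division, cyclin D kinases release E2F factors, the genes of DNA replication are switched on in late G1 and S phase, and the genes of mitosis follow in G2 and M phase under control elements named CHR and CCAAT boxes. Both CD8 T cells, which kill infected or altered cells, and CD4 T cells, which include helper and Foxp3-bearing regulatory cells, can divide in inflamed tissue, and CD8 T cells are well known in the arterial lesions of Kawasaki disease. A class defined by cycling can thus gather cells of several lineages, and the question here was which lineages it holds.

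The LCWE and PBS libraries held 42275754 and 62600808 unique molecular identifiers (UMIs, each standing for 1 captured transcript), with medians of 5508 and 11252.5 per cell. Libraries shared 8 cell barcodes, of which 0 belonged to proliferating T cells. The proliferating T cells had a median of 12440 UMIs (2181 to 38075) and 3231 genes, against 3924 UMIs and 1397 genes in the 2133 other LCWE lymphocytes. Their median mitochondrial share was 4.28% against 4.49%. Their median deposited doublet score was 0.0705 against 0.0239, and 12 of the 65 (18.5%) lay above 0.0964, the 90th percentile of all LCWE cells. The authors' own doublet calls are negative for all listed cells, so no cell was removed for its score.

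The proliferating T cells made up 2.96% of the 2198 LCWE lymphocytes (2.29 to 3.75%) and 1.28% of all LCWE cells (0.987 to 1.62%). In the PBS aorta, 4 cells carry the same name. They were 5.33% of its 75 lymphocytes (1.47 to 13.1%) and 0.0743% of its 5386 cells (0.0202 to 0.190%). The share of all cells was therefore 17.2 times as high in the LCWE library (6.40 to 65), whereas the share of lymphocytes was 0.554 times as high (0.206 to 2.10), an interval that spans 1. Lymphocytes as a whole were 43.2% of LCWE and 1.39% of PBS cells. The 4 PBS cells had 4, 4, 7 and 12 UMIs of Mki67. By the surface genes described further on, 2 of them were CD8, 1 was CD4 without Foxp3 and 1 had no call.

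The label was first checked against its genes. Mki67, which encodes the chromosome-coating proliferation antigen Ki-67, had a UMI in 61 of the 65 cells, with a median of 5 and a highest value of 45 per cell. Top2a, the DNA topoisomerase that untangles chromosomes before mitosis, had one in 57 (median 7, highest 36), and Birc5, the survivin of the chromosomal passenger complex, in 59 (median 7, highest 27). Each of these mitotic transcripts was thus found in most of the 65 cells, and some cells lacked at least 1 of them. Cd3e, a signalling chain of the T cell receptor complex, had a UMI in 53 of 65 cells (81.5%, 70.0 to 90.1%; median 4, highest 16). That share was 89.5% in activated CD8 T cells and 3.20% in NK cells, which lack the complex and had a median of 3397 UMIs. With every cell thinned to 2000 UMIs, the Cd3e share was 35.4% in the proliferating T cells, 64.6% in activated CD8 T cells and 2.52% in NK cells. Cycling and T cell genes were found together in most of the 65 cells. The label names these genes and the cells were grouped on them, so this describes the class and is no support for its name. On GRCm38, GENCODE places the protein-coding genes Mki67 at chr7:135689784-135716361, Top2a at chr11:98992943-99024189 and Cd3e at chr9:44998740-45009627, all on the minus strand, and Birc5 at chr11:117849251-117855743 on the plus strand.

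The promoters of genes that define the class are shown because genes of this kind are known to be switched on together in dividing cells through short promoter elements. The sequences are the 120 bases before the RefSeq transcription start (GRCm38.p6), 5′ to 3′ on the gene's strand, with matches in capitals. The letters searched on both strands were TTTGAA (the CHR element, TTCAAA on the other strand), CCAAT (with ATTGG on the other strand), and for E2F factors TTTCCCGC, TTTCGCGC, TTTGCCGC and TTTGGCGC. The first 4 genes act in G2 and mitosis and the last 2 in DNA synthesis. Ube2c, the ubiquitin-conjugating enzyme of the anaphase-promoting complex, has its window at chr2:164769809-164769928 (plus strand), Top2a at chr11:99024190-99024309 (minus), Mki67 at chr7:135716380-135716499 (minus) and Birc5 at chr11:117849117-117849236 (plus). Pclaf, which binds the replication clamp and is listed in the files as 2810417H13Rik, has its window at chr9:65890203-65890322 (plus), and Dut, the enzyme that keeps uracil out of DNA, at chr2:125247395-125247514 (plus).
Ube2c: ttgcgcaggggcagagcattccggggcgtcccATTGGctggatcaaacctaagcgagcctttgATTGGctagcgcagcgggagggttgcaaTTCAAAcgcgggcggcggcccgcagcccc
Top2a: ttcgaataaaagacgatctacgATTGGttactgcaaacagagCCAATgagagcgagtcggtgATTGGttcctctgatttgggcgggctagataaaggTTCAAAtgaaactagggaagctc
Mki67: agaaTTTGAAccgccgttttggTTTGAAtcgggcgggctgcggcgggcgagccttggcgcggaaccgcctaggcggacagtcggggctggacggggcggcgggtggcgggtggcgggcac
Birc5: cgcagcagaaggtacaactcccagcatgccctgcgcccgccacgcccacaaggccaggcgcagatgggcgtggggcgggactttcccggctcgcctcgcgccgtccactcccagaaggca
Pclaf: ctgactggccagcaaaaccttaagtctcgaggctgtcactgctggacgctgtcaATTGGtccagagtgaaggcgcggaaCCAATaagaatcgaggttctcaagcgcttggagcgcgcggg
Dut: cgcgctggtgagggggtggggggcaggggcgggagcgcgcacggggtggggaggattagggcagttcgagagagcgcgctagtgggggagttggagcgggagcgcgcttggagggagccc

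Ube2c and Top2a each have a CHR match close to the start, beginning 29 and 23 bases before it, with 2 and 3 CCAAT matches in the printed bases. Mki67 has 2 CHR matches, 116 and 98 bases before the start. Pclaf has 2 CCAAT matches, and Birc5 and Dut have no match in these windows. Over the 250 bases before the start, 34 of the 43 matched genes of the G2/M list (79.1%) had a CCAAT match and 14 (32.6%) a CHR match, against 34.5% and 16.3% of all 27025 promoters. Of the 33 matched genes of the G1/S list, 19 (57.6%) had a CCAAT match, 4 (12.1%) a CHR match and 7 (21.2%) an E2F match, the last against 1.91% of all promoters. A match describes letters in the window and is neither a shown binding site nor a cause.

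Not all 65 cells held the transcripts of a T cell. Of them, 57 had at least 3 UMIs of Cd3d, Cd3e and Cd3g together, 8 had fewer and 6 had none. When each cell was compared with the LCWE classes of at least 30 cells, 6 were nearest to a class outside the lymphocytes. The proliferating stromal cells and the small classes, such as 22 cycling monocytes, macrophages and dendritic cells, were not offered in this step. The union of these criteria holds 11 cells. Counts of called genes that differ without them, for 54 cells, are given together with the gene lists, and this subset was chosen after the data were seen.

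Several of the 11 cells carried the transcripts of another blood lineage at levels that few or no other members had. One held all 565 UMIs of Jchain and 108 of the 110 UMIs of Mzb1, genes of antibody secretion, with 1 Cd3 UMI. Another held 26 of the 29 UMIs of Ebf1, a factor of the B lineage, with 5 of Cd79a and 0 of Cd3. One more held 283 of the 463 UMIs of Lyz2, the lysozyme of myeloid cells, and 113 of 143 of Tgfbi, with 0 of Cd3. Yet another had no Cd3 UMI and 26 of Sox4, 24 of Mef2c and 12 of Cd34, genes known from blood progenitors. These are cells of the named class whose leading genes go against a T cell name.

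The antigen-presenting gene H2-Aa, a class II chain of the major histocompatibility complex, was at 67, 109, 140 and 181 UMIs in 4 of the 11 cells. Of these, the cell with 181 had 419 UMIs of Cd74, 8 of Clec9a and no Cd3 UMI, and the one with 67 had 5 of Cd3. The cells with 109 and 140 had 36 and 41 Cd3 UMIs and 22 and 45 Cd8a and Cd8b1 UMIs beside them, and doublet scores of 0.159 and 0.152. They thus held T cell and dendritic cell transcripts in 1 barcode, and whether they are doublets was not tested. Another pair of cells had no Cd3 UMI, 6 and 4 UMIs of Ncr1, the NKp46 receptor of NK cells, and 144 and 86 of the granzyme Gzma. The last of the 11 was the shallowest member, with 2181 UMIs and 1 Cd3 UMI. Cells with enough Cd3 were kept even with other genes: 1 had 49 Cd3 UMIs beside 131 of Lyz2 at a doublet score of 0.213, and 1 had 7 Cd3 UMIs beside all 12 of Pf4 and all 10 of Itga2b, genes of megakaryocytes.

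**Figure D1:**
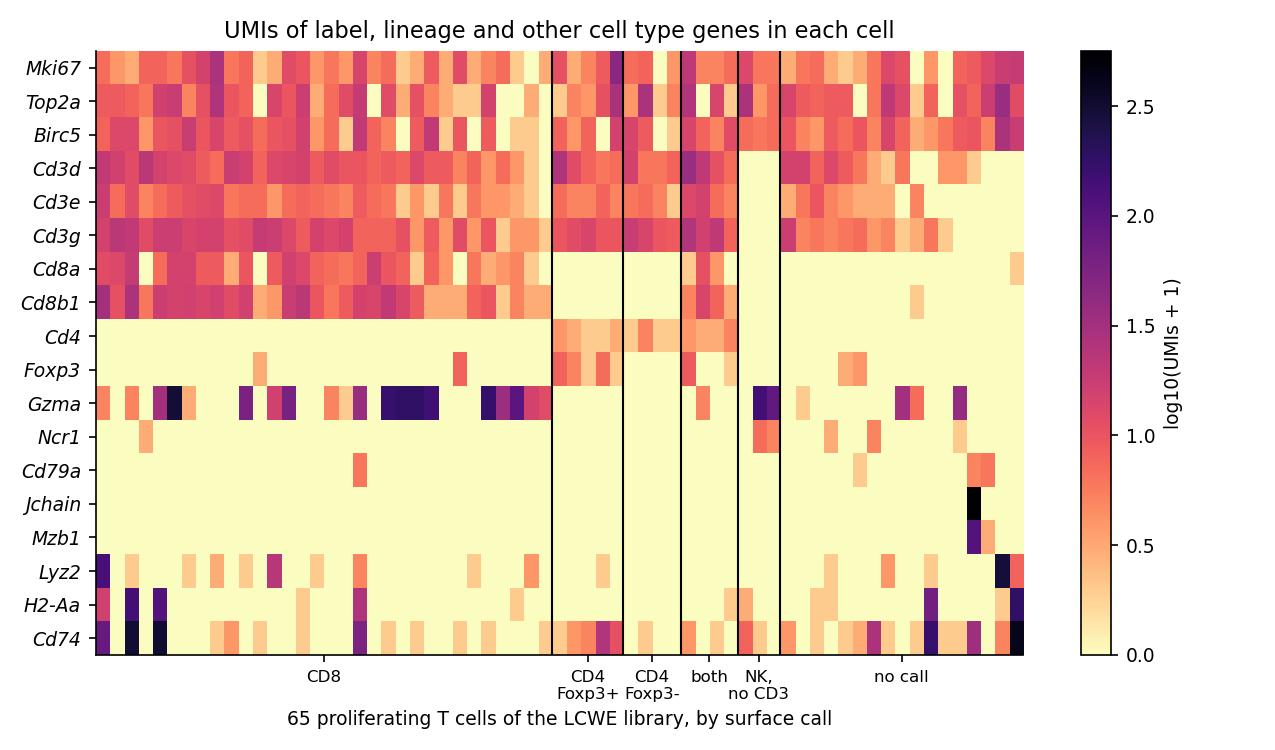
UMIs per cell, as log10(UMIs + 1), of label, lineage and other cell type genes (horizontal bands) in each of the 65 proliferating T cells (columns), ordered by surface call and then by Cd3 UMIs. Mki67, Top2a and Birc5 fill most columns, Cd8a and Cd8b1 fill the CD8 block, and Jchain, Mzb1, Lyz2 and H2-Aa stand out in single columns.

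Over whole marker lists, summed UMIs of the 4 T cell markers ran to a median of 25 per member and a highest value of 82, with 61 of 65 cells above 0. The macrophage and monocyte list came to 527 UMIs in all, 307 of them in 1 cell, with Adgre1 and C1qa at 0. The plasma cell list came to 771 UMIs, 700 of them in 1 cell, and the B cell list to 71 with 36 in 1 cell. The dendritic cell list came to 54 UMIs with at most 14 in a cell. Fibroblast markers had a UMI in 63 of the 65 cells at a median of 3 per cell, and haemoglobin markers in all 65 at a median of 15. NK markers had a UMI in 24 cells (319 UMIs, at most 56 in a cell), type 2 innate lymphoid markers in 32, neutrophil markers in 37, smooth muscle markers in 25 and endothelial markers in 15. The plasma cell and macrophage lists thus rested mostly on 1 cell each, whereas haemoglobin and fibroblast transcripts were spread over nearly all cells, and the part of any of them in the results below was not tested.

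By their surface genes, more proliferating cells were called CD8 than CD4, under a rule that finds the 2 lineages unequally. A cell was called CD8 with at least 2 UMIs of Cd8a and Cd8b1, the chains of the CD8 co-receptor, and none of Cd4, and CD4 with at least 1 UMI of Cd4 and fewer than 2 of the CD8 chains. By this rule 32 of 65 cells were CD8 (49.2%, 36.6 to 61.9%) and 9 were CD4 (13.8%, 6.53 to 24.7%). Of the CD4 cells, 5 had a UMI of Foxp3, the transcription factor of regulatory T cells. A further 4 cells had both co-receptors (6.15%), 3 had NK genes and no Cd3 (4.62%), and 17 had no call (26.2%, 16 to 38.5%). Among the other LCWE lymphocytes the same rule called 35.7% CD8, 14% CD4, 0.985% both, 8.49% NK without Cd3 and 40.8% none. It called 83.3% of activated and 85% of naive CD8 cells CD8. Of the regulatory and activated CD4 class it called 54.4% CD4, and of naive CD4 cells 39.8%. The split of 32 to 9 is thus no measure of the balance between the lineages.

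The depth of the cells bears on these calls, since Cd4 is sparse in this assay. Cd8a had a UMI in 32 members (highest 18), Cd8b1 in 37 (highest 30) and Cd4 in 13 (highest 4). With every cell thinned to 2000 UMIs, 21 members were called CD8 (32.3%) against 23.3% of the other lymphocytes, 1 was called CD4 (1.54%) against 9.41%, 0 were called both and 40 (61.5%) had no call. Without the 11 cells and at full depth, 53.7% were CD8, 16.7% CD4 and 22.2% had no call. The Cd4 level of 27.7 CPM (UMIs of the gene per 1000000 UMIs of the set) in the members and 53.9 in the others gave a ratio of 0.513 (0.335 to 0.756). The levels of Cd8a, 241 against 171 CPM (ratio 1.41, 1.23 to 1.62), and of Cd8b1, 370 against 316 CPM (1.17, 1.05 to 1.31) differed less. Cd40lg, the helper signal to B cells, had a ratio of 0.311 (0.113 to 0.690) from 6 UMIs, and Zbtb7b, the factor that sets the CD4 fate, 1.23 (0.697 to 2.05). Cd5, a brake on receptor signalling carried by T cells of both kinds, had a ratio of 1.28 (1.05 to 1.55).

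Seen from the resting side, 4.03% of all CD8-called LCWE lymphocytes were in the proliferating class (32 of 794, 2.77 to 5.64%). It was 1.52% of CD4 cells without Foxp3 (4 of 263, 0.416 to 3.85%) and 11.1% of CD4 cells with Foxp3 (5 of 45, 3.71 to 24.1%). Cells called NK without Cd3 reached 1.63% (3 of 184; 1 of the 3 is the cell with Cd34, called through a single Klrb1c UMI) and cells without a call 1.92% (17 of 887). At 2000 UMIs per cell the CD8 share was 4.09% (21 of 513, 2.55 to 6.19%) and that of all CD4 cells 0.5% (1 of 200, 0.0127 to 2.75%). The interval of the CD4 cells with Foxp3 overlaps that of the CD8 cells, and after thinning 0 members were called CD4 with Foxp3, so an order between these 2 was not detectable at this depth.

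Foxp3 was found beyond the 5 called cells. In all, 11 of the 65 members held 42 Foxp3 UMIs: the 5 CD4 cells 19, 2 of the 4 cells with both co-receptors 9, 2 cells without a call 5, and 2 CD8-called cells 9. Both of the latter had 2 UMIs of Cd8b1, none of Cd8a and 2 and 7 of Foxp3, and were nearest to the regulatory and activated CD4 class. Foxp3 had a UMI in 29.9% of that class and in 5 of 294 activated CD8 T cells, with a highest value of 4 in the latter. It had one in 4 of 322 naive CD4 cells, 1 of 281 NK cells, 0 of 318 NKT cells and 0 of 280 naive CD8 cells. The gene lies at chrX:7573644-7595245 on the plus strand.

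To place every cell, including those without a surface call, each was assigned to the nearest of the 8 other lymphocyte classes by the likelihood of its UMIs over 708 genes that differ between these classes. Cell cycle genes and 1942 genes higher in the proliferating stromal cells than in the other stromal cells were left out. Activated classes of both lineages held most of the cells: 25 were nearest to the regulatory and activated CD4 class (38.5%, 26.7 to 51.4%) and 24 to activated CD8 T cells (36.9%, 25.3 to 49.8%). A further 6 were nearest to NKT cells, 5 to NK cells, 2 to naive CD4 cells and 1 each to naive CD8, transitional CD8 and γδ T cells. The 2 nearest to naive CD4 cells were the cells with the most Ebf1 and with all Jchain UMIs. The 1 nearest to γδ T cells was the cell with all Pf4 and Itga2b UMIs, and whether it is a γδ T cell was not tested. Without the 11 cells, 23 of 54 were nearest to activated CD8 T cells (42.6%) and 20 to the regulatory and activated CD4 class (37.0%), 6 to NKT, 2 to NK, 1 to each of the last 3 and 0 to naive CD4 cells.

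The proliferating cells nearest to a class, divided by these and the resting cells of the class together, give its cycling share. It was 7.84% (5.14 to 11.4%) for the regulatory and activated CD4 class and 7.55% (4.90 to 11%) for activated CD8 T cells. All the other classes had lower values: 1.85% for NKT (0.683 to 3.99%), 1.82% for γδ T cells (0.0460 to 9.72%), 1.75% for NK (0.570 to 4.03%), 0.617% for naive CD4, 0.356% for naive CD8 and 0.344% for transitional CD8 T cells. The intervals of the 2 activated classes overlap each other and lie above those of all the other classes except γδ T cells, of which the library held 54. The γδ value rests on the cell with Pf4 and Itga2b alone. Without the 11 cells, the shares were 7.26% (4.65 to 10.7%) for activated CD8, 6.37% (3.93 to 9.67%) for regulatory and activated CD4 and 0.707% for NK cells. Naive CD4 cells then had 0 beside 322 resting cells, with an exact upper limit of 1.14%. The limit on Cd3 takes out cells with NK genes, so the lower NK share is fixed in part by the choice of cells. In this smaller set the interval of the regulatory and activated CD4 class reaches just into that of NKT cells.

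**Figure D2:**
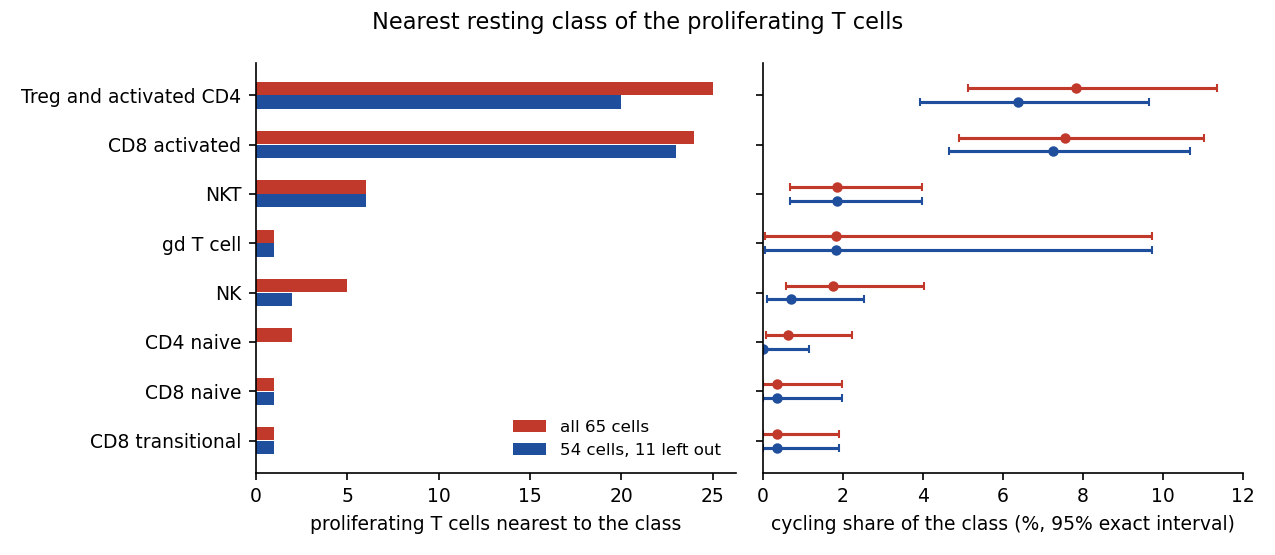
Left, the number of proliferating T cells nearest to each other lymphocyte class; right, the cycling share of that class in percent with exact 95% intervals, for all 65 cells and for the 54 left without the 11 cells described. The activated CD8 and the regulatory and activated CD4 classes lie above 6% in both sets, and no other class exceeds 2%.

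The method returned the deposited class for 81.8% of held-out resting cells, from 79.3% for naive CD4 to 94.9% for NKT, apart from transitional CD8 cells (47.4%). The median lead of the chosen class was 170 log-likelihood units and no cell had a lead under 5. A large lead does not show that the class is right. The largest, 3317, placed the cell with 565 UMIs of Jchain among naive CD4 cells. The held-out cells were resting and mostly shallower than the members. Surface and nearest class went together in most cells. The nearest-class step did not set the surface genes aside, so the 2 readings are not independent and their overlap supports neither. Of the 32 CD8-called cells, 22 were nearest to activated CD8, 6 to regulatory and activated CD4, 2 to NKT, and 1 each to naive and transitional CD8 T cells. All 9 CD4-called cells were nearest to the regulatory and activated CD4 class. Of the 17 cells without a call, 6 were nearest to that class, 4 to NKT, 3 to NK, 2 to naive CD4 and 1 each to activated CD8 and γδ T cells. The 6 CD8-called cells nearest to the CD4 class include both CD8-called cells with Foxp3. The others held 15, 25, 109 and 140 UMIs of H2-Aa. Those with 15 and 25 were kept among the 54 cells. Antigen receptor constant genes were not matched, so a γδ or αβ receptor could not be read directly.

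Genes of DNA replication and of mitosis took a median of 0.607% and 0.617% of the UMIs of a proliferating T cell. G1/S genes ran from 0.0348 to 1.44% and G2/M genes from 0.144 to 2.46%, against medians of 0.0936 and 0.0610% in the other lymphocytes. Both lists summed held at least 0.489% in each member (median 1.38%, highest 2.84%), and at most 1.18% in any other lymphocyte. The cells therefore ranged from replication-led to mitosis-led. When each list was divided by its mean over the members, 37 of 65 cells were led by G1/S genes (56.9%, 44.0 to 69.2%) and 28 by G2/M genes. This scaling sets the balance near even, and dividing by the median in place of the mean gave 46.2% led by G1/S genes, so no majority is read from it. The split was 20 to 12 in CD8 cells, 6 to 3 in CD4 cells and 8 to 9 in cells without a call, and the intervals of these shares overlap widely.

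**Figure D3:**
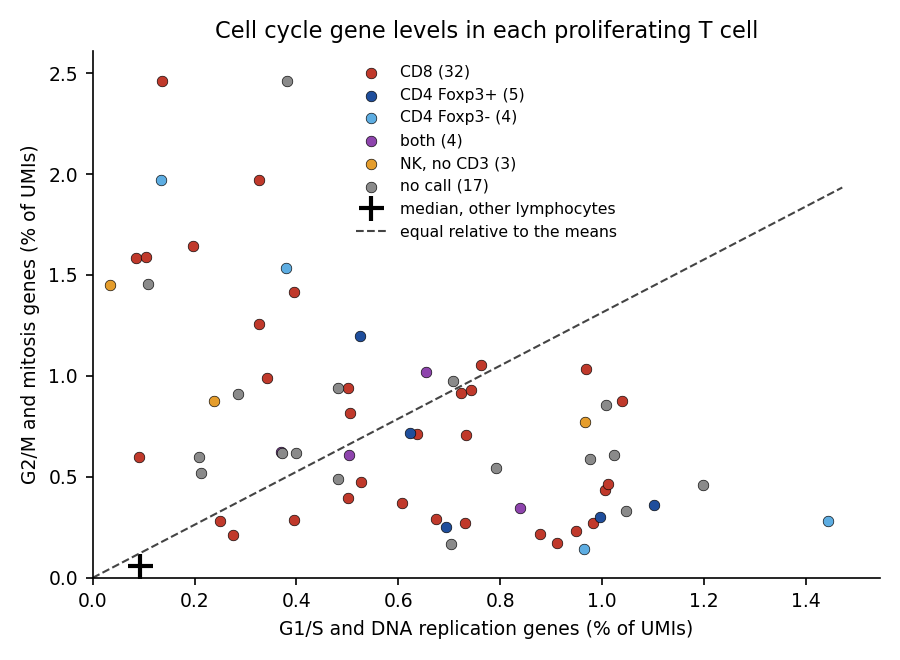
G1/S and DNA replication genes (horizontal) against G2/M and mitosis genes (vertical), each as percent of the UMIs of a cell, for the 65 proliferating T cells coloured by surface call, with the median of the other lymphocytes as a cross. The cells spread along both axes, and no call keeps to one side of the dashed line of equal level relative to the means.

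Set beside the other cycling cells of the LCWE aorta, the proliferating T cells had the highest replication level. Their G1/S genes summed to 6052 CPM (5898 to 6208), against 2971 (2869 to 3077) in the 41 proliferating stromal cells and 3707 (3520 to 3901) in the 22 cells of a cycling monocyte, macrophage and dendritic class. The G2/M genes were at 7493, 7360 and 7414 CPM, and these intervals overlap. There were 0.808 G1/S UMIs per G2/M UMI in the T cells (0.780 to 0.836), 0.404 in the stromal (0.387 to 0.421) and 0.5 in the myeloid cells (0.469 to 0.532). In shares of UMIs, the classes thus differed in the genes of DNA replication. Counted per cell, the T cells held 90.9 G1/S and 113 G2/M UMIs, the stromal cells 77.2 and 191, and the myeloid cells 67.0 and 134, so on that scale the difference from the stromal cells was larger in the mitotic genes. The ratio of the lists within a class does not depend on the scale.

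Few other lymphocytes reached this level. The members were grouped on these same genes and also set the limit used here. Low counts in the other classes therefore describe the annotation and test nothing. At the 10th percentile of the members, 0.881% of UMIs in both lists, 58 of the 65 cells and 47 of the 5026 other LCWE cells were at or above it. Only 3 of the 47 were lymphocytes, 2 activated CD8 and 1 regulatory and activated CD4 T cell, out of 2133. Most of the others were 21 of the 41 proliferating stromal and 17 of the 22 cycling myeloid cells. Naive CD8 (0 of 280, exact upper limit 1.31%), naive CD4 (0 of 322, 1.14%), NKT (0 of 318, 1.15%) and NK cells (0 of 281, 1.30%) had none. In the PBS library 0 of the 71 other lymphocytes were at or above it.

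Compared gene by gene with the other LCWE lymphocytes, the proliferating T cells had far higher levels of cell cycle genes and lower shares of most genes of the naive and memory list. A gene is called higher or lower when the exact interval of its CPM ratio lies wholly beyond 2-fold. Since the members were grouped on these same genes, the counts describe the class and test nothing. Of 43 measured G1/S genes 38 were higher and 0 lower, and of 49 measured G2/M genes 47 were higher and 0 lower, beside 6.13% higher and 1.01% lower among all 10500 measured genes; nothing is read from these shares. The median log2 ratio was 2.94 for the G1/S list, 5.59 for the G2/M list and 0.20 over all genes.

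Scale matters for every gene called lower, because a proliferating T cell held 3.40 times as many UMIs as another lymphocyte. Counted as UMIs per cell, which was added after the data were seen, 5884 genes were higher and 2 lower in place of 644 and 106, and the median log2 ratio of all genes moved from 0.20 to 1.97. The 2 genes lower on both scales were Klra4 and Klra8, which encode Ly49 receptors of NK cells. Without the 11 cells, Klra8 but not Klra4 was called lower per cell. The other genes called lower take a smaller share of the transcripts of a proliferating T cell, and are not called lower in copies per cell. Depth, cell size and RNA content cannot be told apart here.

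Among mitotic genes, Ube2c was at 606 CPM in the proliferating T cells and 7.87 in the other lymphocytes, 77.1-fold higher (60.5 to 99.6), with a median of 5 UMIs per cell and a highest of 42. Birc5 was 132-fold higher (93.7 to 192), Mki67 65.2-fold (50.2 to 86.0) and Top2a 21.3-fold (18.3 to 24.7). Among replication genes, 2810417H13Rik was 116-fold higher (90.4 to 151; median 10 UMIs, highest 37). Rrm2, a subunit of the enzyme that makes deoxynucleotides, was 39.0-fold higher, Mcm3 of the replicative helicase 9.19-fold and Dut 7.66-fold. For each of these 8 genes no cell held more than 10.2% of the UMIs, so the values do not rest on single cells. The cycle genes not called higher were Cdt1, Nasp, Pcna, Slbp, Ung and Cks2, with ratios from 1.39 to 2.33, and Pttg1, the securin, at 0.814 (0.584 to 1.11).

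Of the genes outside the cycle, mitochondrial, ribosomal, haemoglobin and sex-linked lists, the 10 with the highest ratio were also genes of chromosomes and division. They were the histone genes Hist1h1b (134-fold) and Hist1h2ap (48.5-fold), the kinetochore genes Spc24 (83.0-fold), Casc5 (81.9-fold) and Cenpm (40.2-fold), the motors Kif15 (53.0-fold) and Kif22 (36.7-fold), the condensin subunit Ncapg (52.3-fold), the spindle gene Aspm (51.7-fold) and C330027C09Rik (36.6-fold). Histone genes have near-identical copies, so their counts are uncertain between copies.

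Upstream of replication, the G1 cyclins and kinases split. Of 10 measured genes, 5 were higher: Cdk4 (2.47-fold, 2.05 to 2.95) and Cdk6 (2.84-fold, 2.30 to 3.50), the kinases that open the cycle, Cdk2 (5.34-fold), the phosphatase Cdc25a (4.75-fold) and E2f2 (8.58-fold, 5.90 to 12.5). Ccnd2, the D-type cyclin with the most UMIs, had a ratio of 0.469 (0.400 to 0.547) in shares and 1.6 per cell. Without the 11 cells 3 of the 10 genes were higher, beside 4.96% higher and 0.939% lower among 10440 genes, and Cdk6, with 20 of its 118 UMIs in the cell with the most Cd34, stood at 2.54-fold (1.99 to 3.22).

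Quiescence and inhibitor genes had 4 of 14 members lower in share and 1 higher, with a median log2 ratio of -0.96. Btg1, an antiproliferative gene abundant in resting lymphocytes, was at 660 against 1854 CPM, 2.81-fold lower (2.60 to 3.04), yet at 9.91 against 8.18 UMIs per cell. Tob1 was 3.64-fold, Tsc22d3 4.14-fold and Txnip 3.10-fold lower in share, with per-cell ratios of 0.936, 0.823 and 1.10. Btg2 (ratio 0.462, 0.408 to 0.523) and Klf2 (0.425, 0.359 to 0.5004), which restrain division and keep T cells in circulation, came close to the 2-fold limit in share. Cdkn2c, the p18 inhibitor of Cdk4 and Cdk6, was 5.58-fold higher (3.93 to 7.86) despite its name as an inhibitor.

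Metabolic genes differed less. Of 16 glycolysis genes 3 were higher: Gapdh (2.19-fold, 2.08 to 2.30), Pgam1 (2.58-fold, 2.24 to 2.98) and Tpi1 (3.09-fold, 2.60 to 3.65), and Pkm had a ratio of 2.07 (1.89 to 2.26). At 65 cells none of the 17 genes of nucleotide and one-carbon synthesis passed the limit, although their median log2 ratio was 1.15. Nme1 had a ratio of 2.22 (2.00 to 2.46), Paics of 2.29 (1.81 to 2.88), Atic of 2.28 (1.69 to 3.03) and Gart of 2.61 (1.86 to 3.6), all enzymes of nucleotide supply. Per cell 15 of the 16 and all 17 of these genes were higher, beside 56.0% of all 10500 measured genes.

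Of the 11 genes of the T cell receptor complex and its signalling 0 were called in either direction, and the median log2 ratio was -0.11. Cd3d was at 550 against 863 CPM (ratio 0.637, 0.583 to 0.696), Cd3g at 562 against 709 (0.794) and Cd3e at 293 against 343 (0.855). The receptor kinase Lck had a ratio of 0.927 and Thy1 of 1.04. The comparison set includes NK cells, which lack the complex.

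Genes of naive and memory T cells were the list with the lowest shares. Of 10 genes 8 were lower and 0 higher, with a median log2 ratio of -1.82, while per cell 0 of 10 were called. Il7r, the interleukin 7 receptor that sustains resting T cells, was at 51.2 against 235 CPM, 4.59-fold lower (3.47 to 6.20), and at 0.769 against 1.04 UMIs per cell. Its UMIs were found in 17 of the 65 cells. Satb1, a chromatin organiser, was 3.93-fold lower and Tcf7, the factor of naive and memory T cells, 3.16-fold, with per-cell ratios of 0.866 and 1.08. Bcl2, which protects from cell death, was 5.48-fold lower (0.621 per cell), and the lymph node homing receptor Ccr7 3.16-fold (1.08 per cell). Lef1 had a ratio of 0.406 (0.307 to 0.528). The comparison set includes 322 naive CD4, 280 naive CD8 and 290 transitional CD8 T cells. Against activated CD8 T cells alone, the 29 CD8-called members described below had 2 of 10 genes lower in share (median log2 ratio -0.05). Against the regulatory and activated CD4 class, the 9 CD4-called members had 1 of 9 lower (median -1.27). Among all genes 0.483% and 1.28% were lower in these comparisons.

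Effector genes were mixed. In the cytotoxic list 3 of 17 were higher and 2 lower in share. The granzymes Gzmk (172 against 43.0 CPM, 4.0-fold, 3.32 to 4.8, in 22 cells) and Gzmb (492 against 198 CPM, 2.48-fold, 2.24 to 2.75, in 37 cells) and the effector receptor Klrg1 (2.83-fold, 2.16 to 3.67, in 21 cells) were higher. The chemokines Ccl5 (2278 against 5529 CPM, 2.43-fold, 2.33 to 2.53) and Ccl4 (3.54-fold) were lower in share, with 1.40 and 0.963 times the UMIs per cell. None of the 10 checkpoint genes was called, with Entpd1 at 2.89 (1.69 to 4.77), Havcr2 at 2.80 (1.56 to 4.79), Ctla4 at 1.89 and Icos at 0.803.

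In the regulatory T cell list 1 of 12 genes was higher. Il2ra, the high-affinity chain of the interleukin 2 receptor, was at 141 against 34.2 CPM, 4.13-fold higher (3.36 to 5.06). It was found in 17 of the 65 cells, and 1 cell held 25.4% of its UMIs. Foxp3 had a ratio of 1.76 (1.24 to 2.45), Tnfrsf4 of 1.91 (1.65 to 2.20) and Ikzf2 of 0.905 (0.787 to 1.04). Without the 11 cells, none of which had Foxp3, Ctla4 (2.30, 2.00 to 2.64), which is also a checkpoint gene, and Tnfrsf4 (2.32, 2.00 to 2.68) passed the limit too.

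Some NK and type 17 genes were lower in share. Klra8 had 0 UMIs in the members against 382 in the others, at least 13.2-fold lower against a floor of 3 UMIs over the set, and Klra4 was 24.9-fold lower (6.86 to 206) with 2 UMIs in 1 cell. Of the 11 NK genes 4 were lower in share, the others being Klra7 and Klrb1c, and 7 were not called. The Ly49 genes have near-identical copies, so counts may be split between them. Cd163l1, the scavenger receptor of type 17 γδ T cells, had 0 against 219 UMIs, at least 7.57-fold lower in share. Il17a had 3 UMIs, all in 1 cell, and was 12.8-fold lower in share, and the other 7 of the 9 γδ and type 17 genes were not called. The remaining list of innate lymphoid type 2 genes had 1 of 6 higher, Klrg1, with Rora at 0.938 and Gata3 at 0.843.

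Of 19 homing receptors 0 were higher and 2 lower in share, Ccr7 among them, and per cell 0 were lower. Selplg (0.811) and Itgb7 (1.16), both used to enter tissue, kept close to the level of the others. Among 17 cytokine receptors Il2ra was higher and Il7r lower, and the interleukin 18 receptor chains Il18r1 and Il18rap had ratios of 0.413 (0.287 to 0.576) and 0.496 (0.336 to 0.707). Of 11 type I interferon genes 4 were lower in share and 0 higher. Ifit1 had 1 UMI against 260 (27-fold lower), Isg15 was 3.05-fold lower (1.12 times as many UMIs per cell), Ifit3 6.33-fold, and Usp18 had 0 against 109. Of 11 immediate early genes, which also answer to tissue digestion, Ier2 was lower in share (2.25-fold, 1.52 times as many UMIs per cell), and Junb had a ratio of 0.477 (0.453 to 0.503). The other genes of lowest share were Klra9 (0 UMIs, at least 7.61-fold lower), Card6 (10.5-fold), Tcp11l2 (7.74-fold), Cxcl12 (7.09-fold) and Slfn8 (6.87-fold), none of them called lower per cell.

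Leaving out the 11 cells changed the counts of several lists. Of G1/S genes 39 of 43 and of G2/M genes 46 of 47 were then higher. Of nucleotide synthesis genes 2 of 17 were higher, Mthfd1l of mitochondrial one-carbon metabolism (3.15-fold, 2.12 to 4.57) and Nme1 (2.27-fold, 2.02 to 2.53). Of regulatory genes 3 of 12 and of checkpoint genes 1 of 10 were higher. Genes lower in share were 5 of 14 in the quiescence list, with Btg2 added, 3 of 17 in the cytotoxic list, with the chemokine Ccl3 added, and 2 of 17 among cytokine receptors, with Il6st added. In the NK list 6 of 11 were lower in share, with the adaptors Fcer1g and Tyrobp added, and in the γδ and type 17 list 3 of 9, with the kinase gene Blk added. The 11 cells include those with NK genes and no Cd3, while the comparison set keeps its NK cells. The NK count of the smaller set is therefore fixed in part by the choice of cells, and nothing is read from it. Of these added genes none was called lower per cell. Among immediate early genes Fos was lower in share (ratio 0.404, 0.332 to 0.488, and 1.33 per cell) in place of Ier2.

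**Figure D4:**
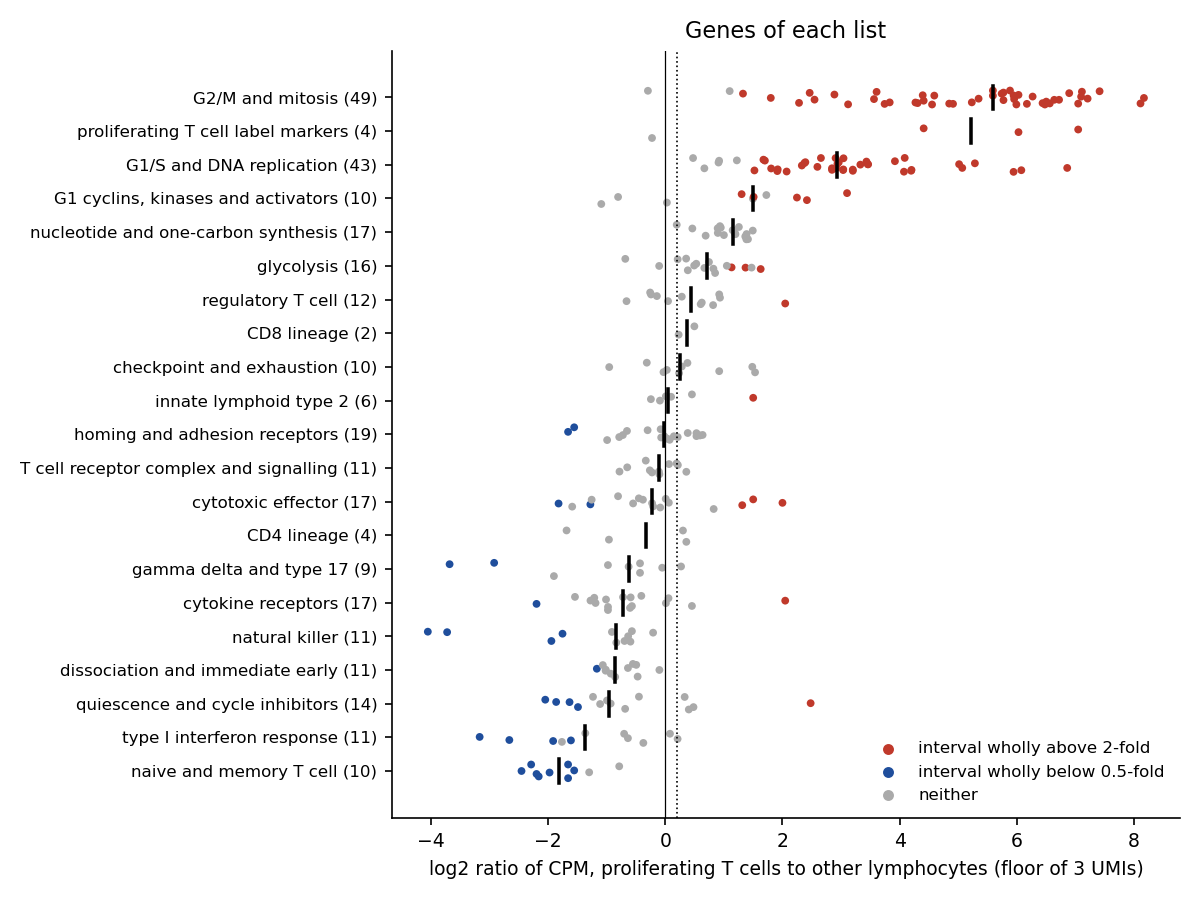
Log2 ratio of CPM, proliferating T cells to other LCWE lymphocytes, for each measured gene (points, coloured by call) of each list, with the list's median as a bar and the median of all genes as a dotted line. The G1/S and G2/M lists lie to the right at medians of 2.94 and 5.59 and the naive and memory list to the left at -1.82, and the latter direction holds for shares of UMIs and not for UMIs per cell.

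Within the CD8 lineage, the 29 CD8-called members left without the 11 cells held granzymes at shares of their UMIs near those of activated and far above those of naive CD8 T cells. Against the 294 activated CD8 cells, 24 of 40 G1/S and 39 of 41 G2/M genes were higher, but 0 of 17 cytotoxic genes were higher and 3 were lower in share, beside 2.65% higher and 0.483% lower among 6833 genes. Gzma was at 3842 against 2770 CPM (ratio 1.39, 1.31 to 1.47), with UMIs in 17 of 29 cells, a median of 4 and a highest of 299. Gzmb (1.30, 1.14 to 1.47; 21 cells, median 2, highest 66) and Gzmk (1.59, 1.28 to 1.96; 18 cells, median 4, highest 16) were also near the share in activated cells. Per cell, 6 of the 17 cytotoxic genes were higher, beside 33.7% of all 6833 genes, so nothing is read from that count. Gzma was at 3.86, Gzmb at 3.61 and Gzmk at 4.42 times the UMIs, in cells that held 2.78 times as many UMIs in all.

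The 3 cytotoxic genes lower in share were secreted products. Ccl5 was at 4282 against 14781 CPM, 3.45-fold lower (3.28 to 3.63), though found in 28 of 29 cells, Ccl4 was 6.26-fold lower (4.23 to 9.66), and Ifng, the interferon gamma gene, 3.81-fold lower (2.64 to 5.67). Among the other genes lower in share, Il7r was 10.0-fold lower (4.23 to 31.3), with 5 UMIs in 3 cells. The costimulator Icos was 4.13-fold and the tissue homing receptor Cxcr6 4.09-fold lower. Per cell none of the 6833 genes was called lower, and the ratios of these genes were 0.806 for Ccl5, 0.444 for Ccl4, 0.731 for Ifng, 0.277 for Il7r, 0.674 for Icos and 0.681 for Cxcr6. All 6 were therefore below 1 on both scales. Among the genes higher, Cdkn2c was at 5.92-fold.

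Against the 280 naive CD8 cells, 11 of 15 cytotoxic genes were higher and 9 of 10 naive and memory genes lower in share, beside 11.7% higher and 1.78% lower among 6061 genes. The adhesion genes Itgb1 (8.30-fold, 5.91 to 11.8) and Cd44 (6.48-fold, 4.03 to 10.6) were higher, with Itgb1 in all 29 cells. Gzma was 826-fold higher (379 to 2256) from 6 UMIs in the naive cells. Il7r was 15.3-fold lower in share (6.47 to 47.5) and the 1 gene called lower per cell, at 0.172 against 0.918 UMIs.

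Regulatory genes were found in part of the 9 CD4-called members, as in part of their resting class. Against the 294 regulatory and activated CD4 cells, 0 of 11 regulatory T cell genes were called in share, beside 2.69% higher and 1.28% lower among 6646 genes. Per cell, 7 of 11 were higher (median log2 ratio 1.52), beside 35.9% of all genes (median 1.99). The total UMIs per cell differed 3.63-fold, and 9 cells do not show that the shares are equal. Foxp3 was at 131 against 165 CPM (ratio 0.791, 0.467 to 1.27), found in 5 of 9 cells with a highest value of 7. Il2ra was at 440 against 177 CPM (2.48, 1.85 to 3.29), found in 6 cells with 43.8% of its UMIs in 1. Ctla4, an inhibitory receptor, had a ratio of 1.26 (1.03 to 1.53), with 54.7% of its UMIs in 1 cell. Such values of 9 cells lean on 1 or 2 of them.

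Replication and mitosis genes were higher in these cells too, 25 of 33 and 26 of 30, and so were E2f2 (6.75-fold), Gart (5.04-fold), Tpi1 (3.53-fold) and Nme1 (3.0-fold). Il17a, the type 17 cytokine, had 0 UMIs against 149, at least 5.52-fold lower in share, but 0 in 9 cells does not pass the limit per cell. Ccl5 was 14.2-fold lower in share and also lower per cell, at 1.11 against 4.34 UMIs. Against the 322 naive CD4 cells, 9 of 10 regulatory genes were higher and 8 of 10 naive and memory genes lower in share, beside 7.8% higher and 1.83% lower among 5781 genes. Foxp3 was 40.5-fold higher (13.5 to 164), Il2ra 49.7-fold (26 to 104) and Tnfrsf4 26.7-fold (17.8 to 41.1).

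**Figure D5:**
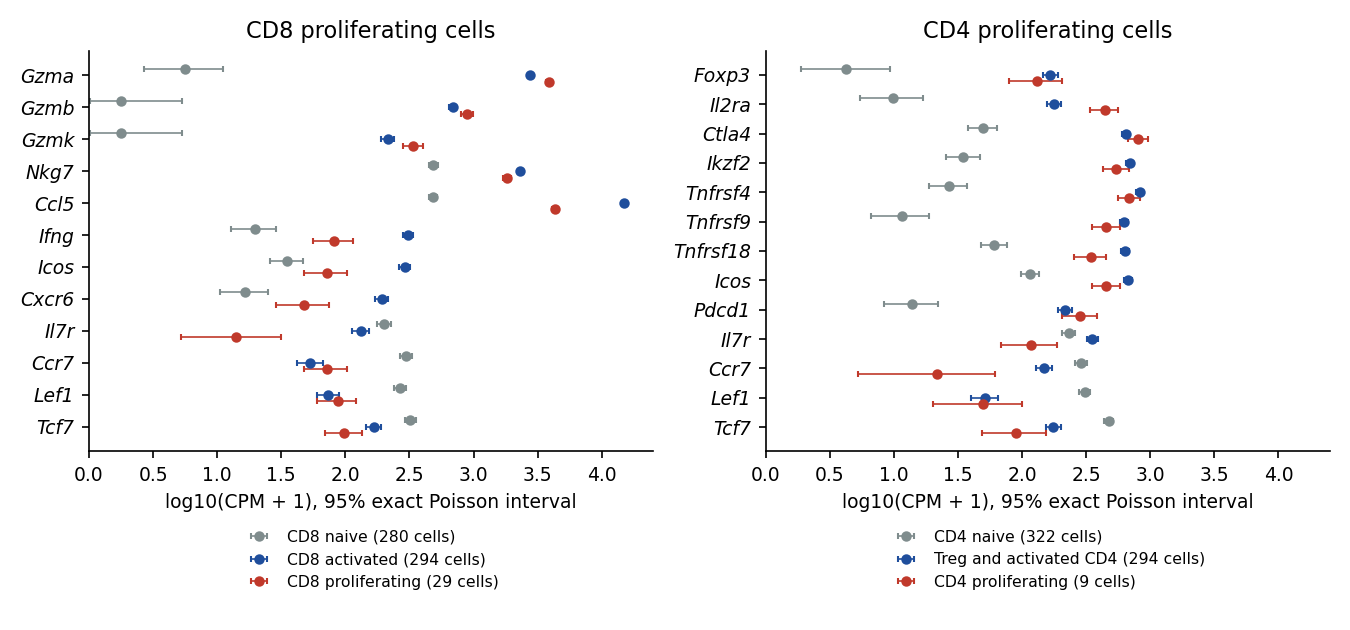
CPM on a log10(CPM + 1) axis with exact 95% Poisson intervals, for state genes in the proliferating cells called CD8 (left, 29 cells) or CD4 (right, 9 cells) and in a naive and an activated resting class of the same lineage. Gzma, Gzmb and Gzmk of the CD8 cells and Foxp3 and Ctla4 of the CD4 cells lie beside the activated class, and Il7r of the CD8 cells lies below both classes.

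The lineages differed from each other in cytotoxic and regulatory genes, and few cycle genes differed. Comparing the 29 CD8 with the 9 CD4 members, 8 of 14 cytotoxic genes were higher and 9 of 10 regulatory T cell genes lower in the CD8 cells, beside 1.17% higher and 1.65% lower among 3754 genes. Ccl5 was at 4282 against 68.7 CPM, 62.3-fold higher in the CD8 cells (33.8 to 130), and Gzma had 1476 against 0 UMIs, at least 186-fold higher. Tnfrsf4 was 13.2-fold (8.11 to 22.5), Il2ra 10.6-fold (6.04 to 19.6), Ctla4 7.72-fold (5.35 to 11.4) and Foxp3 5.57-fold (2.40 to 14) lower in the CD8 cells. Of Foxp3 UMIs in the CD8 members 77.8% were in 1 cell. These directions were the same per cell. Mki67 had a ratio of 0.793 (0.609 to 1.04), Top2a of 1.01 (0.775 to 1.31) and Birc5 of 1.54 (1.14 to 2.13), and 0 of 39 G1/S and 1 of 44 G2/M genes were called.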

How the data were processed

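Single-cell RNA was measured in 1 LCWE and 1 PBS library. The authors deposited unnormalised UMI counts of each cell for 27998 genes, made with Cell Ranger 3.0.2 on mm10 per the submitters' processing notes; aligner settings are not given in the sources used here. The authors' cell table gives UMI and gene counts, the percent of UMIs in mitochondrial genes, a doublet score from a caller it does not name, and other fields (library name, embedding coordinates), per the file headers. Some items are not reported here. Cell names are the authors'.

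UMIs were summed over cells and divided by their total (CPM), with exact Poisson intervals; ratios carry conditional binomial and shares Clopper-Pearson intervals (Python 3.11.15, numpy 2.4.6, scipy 1.17.1, pandas 2.3.3, matplotlib 3.10.9). A gene was measured with at least 20 UMIs over both sets. A sum under 3 was raised to a floor of 3 UMIs for log2 ratios, and a sum of 0 also for "at least". For the nearest class, genes needed at least 50 CPM in the highest class and a 4-fold range between classes of at least 30 cells (pseudocount 10 CPM), and genes at least 1.5 times higher in proliferating stromal cells were left out. Thinning to 2000 UMIs left out 18 other lymphocytes and 0 members. Calls of γδ cells from receptor constant genes, planned in the surface rule, were not made because these genes were not matched. The gene comparison and the nearest-class step were run on counts simulated from pooled profiles of resting lymphocytes. The simulated counts had no cycling cells, doublets or spread between cells. They therefore do not show how the procedures behave on the members.

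The members and gene lists were chosen with earlier results of these data known. Genes named are all CD8 and CD4 lineage genes, the label markers, from each other list up to 4 measured members with the most UMIs in the members, at least 2-fold different first, and the 10 highest and 10 lowest ratios among genes with at least 50 UMIs where higher. Other genes named, including those of single cells and of the lineage comparisons, were chosen after their values were seen. Alternatives were other surface thresholds, thinning, other nearest-class settings, limits on mitochondrial share and doublet score, and, chosen after seeing the data, leaving out 11 cells and UMIs per cell.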

Additional observations from a re-analysis of the deposited data

How the results depend on the processing

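Each library is 1 pool, so no replicate could be left out. No paired analysis was possible because each condition has 1 library and no result comes from a test. Of the 95 alternative values computed, 83 stayed within the counting interval or within 1.5 times the count, and 12 moved; the cause of these moves was not tested beyond the lower depth or the smaller set that the alternative itself makes. Thinned to 2000 UMIs, the CD8 call was 32.3% of members, the CD4 call 1.54%, CD4 with Foxp3 0% and no call 61.5%, and with 2 UMIs required of every gene CD4 was 6.15%. Members nearest to naive CD4 cells were 0% without the 11 cells described. Members nearest to naive CD8 cells were 0% by Spearman correlation and 0% after thinning, and those nearest to γδ T cells 0% among cells up to the 90th percentile of the doublet score. With the lowest level of any member as the limit, 102 other LCWE cells reached it in place of 47. Counted as UMIs per cell, 5884 genes were higher and 2 lower in place of 644 and 106. The nearest class was the same for 56 of 65 members by Spearman correlation, 59 with an 8-fold range, 60 with cell cycle genes kept and 62 after thinning.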
